A study of Mus musculus with 4 samples.

Results

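The myosin heavy, light and unconventional chains were taken as all protein-coding transcripts of the deposited table whose gene symbol is Myh, Myl or Myo followed by a number and, in some, by letters. This gave 74 transcripts of 31 genes, out of 34200 transcripts of 21945 genes in the table, of which 26536 transcripts of 14786 genes were protein-coding. The GENCODE M21 annotation of GRCm38 lists 50 such symbols of protein-coding genes, and for 19 of them there was no row among those analysed here. RNA-seq was made from the mouse fibroblast line NIH/3T3, 48 h after transfection with a lipid reagent. KD cells received a pair of *Setd2* siRNAs, and control cells, named WT, received Scrambled siRNA, at a final concentration of 10 nM in each group. Each group had 2 libraries of polyadenylated RNA. *Setd2* encodes the histone methyltransferase that places trimethyl marks on lysine 36 of histone H3 in transcribed genes.

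The values used here were pooled over the libraries, and KD against WT was not analysed. The level of a transcript is therefore the authors' mean over the 4 libraries of both groups, taken back from the natural log scale to normalised estimated counts. Genes are ordered within a role by level per kb of annotated transcript length, and counts not divided by length are named as counts. The SD given beside a level is the square root of the authors' variance over the 4 libraries, in log2 units, and it mixes the spread within the groups with any difference between KD and WT. The targeted gene, *Setd2*, had a level of 1844 normalised estimated counts with an SD of 1.15. Its level in KD and in WT was not analysed here, so the group labels were not checked against it.

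Myosins are motor proteins that move along actin filaments by hydrolysing ATP. Conventional myosin II is built from heavy chains, which carry the motor and a coiled-coil tail that forms filaments, and from essential and regulatory light chains bound to the neck of each heavy chain. In fibroblasts the non-muscle forms of myosin II drive contraction, stress fibres and cell division, while unconventional myosins tether membranes or carry organelles, and phosphorylation of the regulatory light chain switches myosin II on.

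Several members are spliced into forms with different coding parts, and those exons are shown here because the isoform values below turn on them. In all of them the strand is that of the transcript, the build is GRCm38, and capitals mark the alternative coding part with up to 15 neighbouring transcript bases in lower case. For *Myo5a*, a carrier of melanosomes and other organelles, the exons at chr9:75192384-75192464 and chr9:75196126-75196200 (plus strand, 81 and 75 bases) are known as exons D and F of the tail. Exon F is known for the binding of melanophilin.
*Myo5a* exon D: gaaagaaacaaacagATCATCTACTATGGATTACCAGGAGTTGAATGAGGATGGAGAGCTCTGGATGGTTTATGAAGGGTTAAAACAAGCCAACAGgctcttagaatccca
*Myo5a* exon F: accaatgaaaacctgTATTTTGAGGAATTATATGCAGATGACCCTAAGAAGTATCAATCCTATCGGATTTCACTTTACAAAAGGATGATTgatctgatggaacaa

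For *Myo6*, the myosin that walks in the opposite direction to the others along actin, 3 exons at chr9:80293945-80293974, chr9:80296643-80296681 and chr9:80303273-80303299 (plus strand) encode inserts of the tail. Their lengths are 30, 39 and 27 bases.
*Myo6* 30-base exon: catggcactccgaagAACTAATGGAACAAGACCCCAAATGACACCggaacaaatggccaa
*Myo6* 39-base exon: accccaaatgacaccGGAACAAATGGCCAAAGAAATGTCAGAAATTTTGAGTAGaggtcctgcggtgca
*Myo6* 27-base exon: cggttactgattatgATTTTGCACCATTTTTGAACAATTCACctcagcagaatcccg

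*Myl6*, the essential light chain of non-muscle and smooth muscle myosin II, has forms with different carboxyl ends. The last coding pieces of its 2 most abundant transcripts, at chr10:128491008-128491033 and chr10:128491739-128491764 (minus strand), hold 26 bases each and were identical at 12 of them.
*Myl6* end of the leading transcript: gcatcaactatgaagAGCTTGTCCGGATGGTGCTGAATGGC
*Myl6* end of the next transcript: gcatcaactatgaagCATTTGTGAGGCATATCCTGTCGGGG

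*Myo1c*, which links membranes to actin and also has a nuclear form, has coding parts upstream of the start codon shared by all its forms. Capitals mark 48 and 105 such bases on chr11 (plus strand), which lie in more than 1 exon between 75656184 and 75657521 and between 75650690 and 75657521. The 48-base part encodes the 16 codons of the form known as nuclear myosin I.
*Myo1c* 48-base start: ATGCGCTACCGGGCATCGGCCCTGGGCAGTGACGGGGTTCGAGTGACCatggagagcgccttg
*Myo1c* 105-base start: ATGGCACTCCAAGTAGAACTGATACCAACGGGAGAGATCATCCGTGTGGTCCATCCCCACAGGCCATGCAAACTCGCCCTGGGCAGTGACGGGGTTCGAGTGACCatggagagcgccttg

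Non-muscle heavy chains were led by *Myh9*, the heavy chain of non-muscle myosin IIA, with a level of 26564 normalised estimated counts or 3574 per kb (SD 0.21). *Myh10*, the heavy chain of myosin IIB, had 14678 counts or 1884 per kb (SD 0.30 for its leading transcript). *Myh9* thus held 65.4% and *Myh10* 34.5% of the non-muscle heavy chain level per kb. The ratio of 1.90 between them, 0.92 on the log2 scale, was larger than either SD. *Myh14*, the heavy chain of myosin IIC, had 2.74 per kb from 17.5 counts. The leading *Myh9* and *Myh10* coding sequences were identical at 74.9% of 6018 aligned columns, and 98.2% of the 31-base words of *Myh9* occurred in no other transcript of the table. *Myh9* had 1 transcript. *Myh10* had 2, and the leading one held 97.7% of its level. The other *Myh10* transcript has 111 more coding bases and a level of 333 counts.

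Muscle heavy chains were at low levels. *Myh7b*, a heavy chain of slow muscle fibres, had 43.2 counts or 7.01 per kb. *Myh3*, the embryonic skeletal form, *Myh1*, the fast IIx form, and *Myh13*, the extraocular form, had 5.07, 3.90 and 3.73 counts. The log2 differences between *Myh3*, *Myh1* and *Myh13* in that order were smaller than their SDs, which reached 2.25. *Myh11*, the smooth muscle heavy chain, had 2.27 counts. The striated muscle heavy chains together had 9.16 per kb against 5461 per kb for the non-muscle heavy chains. For *Myh2*, *Myh4*, *Myh6*, *Myh7*, *Myh8* and *Myh15* there was no row among those analysed here.

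Essential light chains were almost wholly *Myl6*, with 35416 counts or 50002 per kb. *Myl6* ranked 111 in level per kb among the 14470 protein-coding genes with an annotated length. It held 99.2% of the essential light chain level, followed by *Myl6b* with 348 per kb and *Myl4*, the atrial and embryonic muscle form, with 37.0 per kb. For the muscle forms *Myl1* and *Myl3* there was no row among those analysed here, so these shares are over the genes with a row. *Myl6* and *Myl6b* lie 281 bases apart on chromosome 10, and the ratio of their levels was 144. Their leading coding sequences were identical at 59.3% of aligned columns. Essential light chains had 9.23 times the level per kb of the non-muscle heavy chains, 12.7 times with 200 bases taken off each length and 0.868 times in counts not divided by length. Among the 31-base words of *Myl6*, 17.2% were shared with the processed pseudogene *Gm5526* and 12.5% with *Gm5915*. Those pseudogenes together had a level of 37.5 counts, and the split of reads between them and *Myl6* is uncertain.

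Regulatory light chains with a row were *Myl12a* and *Myl12b*, the non-muscle forms, which lie 2765 bases apart on chromosome 17. *Myl12a* had 6154 counts or 5805 per kb and *Myl12b* had 3162 counts or 1671 per kb. The log2 difference of 1.80 between their levels per kb was larger than the SDs of their leading transcripts, 0.68 and 0.11. For *Myl9*, the smooth muscle form, and for the muscle forms *Myl2*, *Myl7* and *Myl10* there was no row among those analysed here. Of the level of both genes with a row, *Myl12a* held 77.7% and *Myl12b* 22.3%. Together they had 1.37 times the level per kb of the non-muscle heavy chains, and 0.226 times in counts not divided by length. All 6 transcripts of *Myl12a* share 1 coding sequence, as do both of *Myl12b*. The coding sequences of these genes differ at 18 of 516 bases, in 15 of 172 codons.

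These values are uncertain, because a neighbouring gene with another symbol in the table has exons in both genes. That gene, AC154187.2 (ENSMUSG00000117098.1), is protein-coding and is named *Myl12b* in the GENCODE annotation. Its leading transcript, at chr17:70974323-71002208 (minus strand), takes 346 coding bases from exons of *Myl12a* and the last 170 from an exon of *Myl12b*. It had 15919 counts or 25031 per kb with an SD of 0.10. The summed level of AC154187.2 was 25138 per kb, 3.36 times that of *Myl12a* and *Myl12b* together. It shared 24.6% of the 31-base words of *Myl12a* and 31.2% of those of *Myl12b*. With it included, regulatory light chains had 5.97 times the level per kb of the non-muscle heavy chains, and *Myl12a* held 17.8% and *Myl12b* 5.12% of the total. In counts not divided by length, AC154187.2 had 16009, *Myl12a* and *Myl12b* together 9316.5 and the non-muscle heavy chains 41260. The window of coding bases 369 to 459, counted from the start codon, is shown because it holds the only base at which the coding sequence of AC154187.2 differs from that of *Myl12a*. The capital marks that base. AC154187.2 and *Myl12b* both have G414A against *Myl12a* there, and the coding sequence of AC154187.2 differs from that of *Myl12b* at 17 bases.
*Myl12a*: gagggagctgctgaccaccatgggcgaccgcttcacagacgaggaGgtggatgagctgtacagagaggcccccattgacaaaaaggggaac
*Myl12b*: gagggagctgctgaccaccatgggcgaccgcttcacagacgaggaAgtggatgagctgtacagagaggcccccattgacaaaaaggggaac
AC154187.2: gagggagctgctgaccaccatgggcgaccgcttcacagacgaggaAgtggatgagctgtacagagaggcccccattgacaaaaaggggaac

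**Figure D1:**
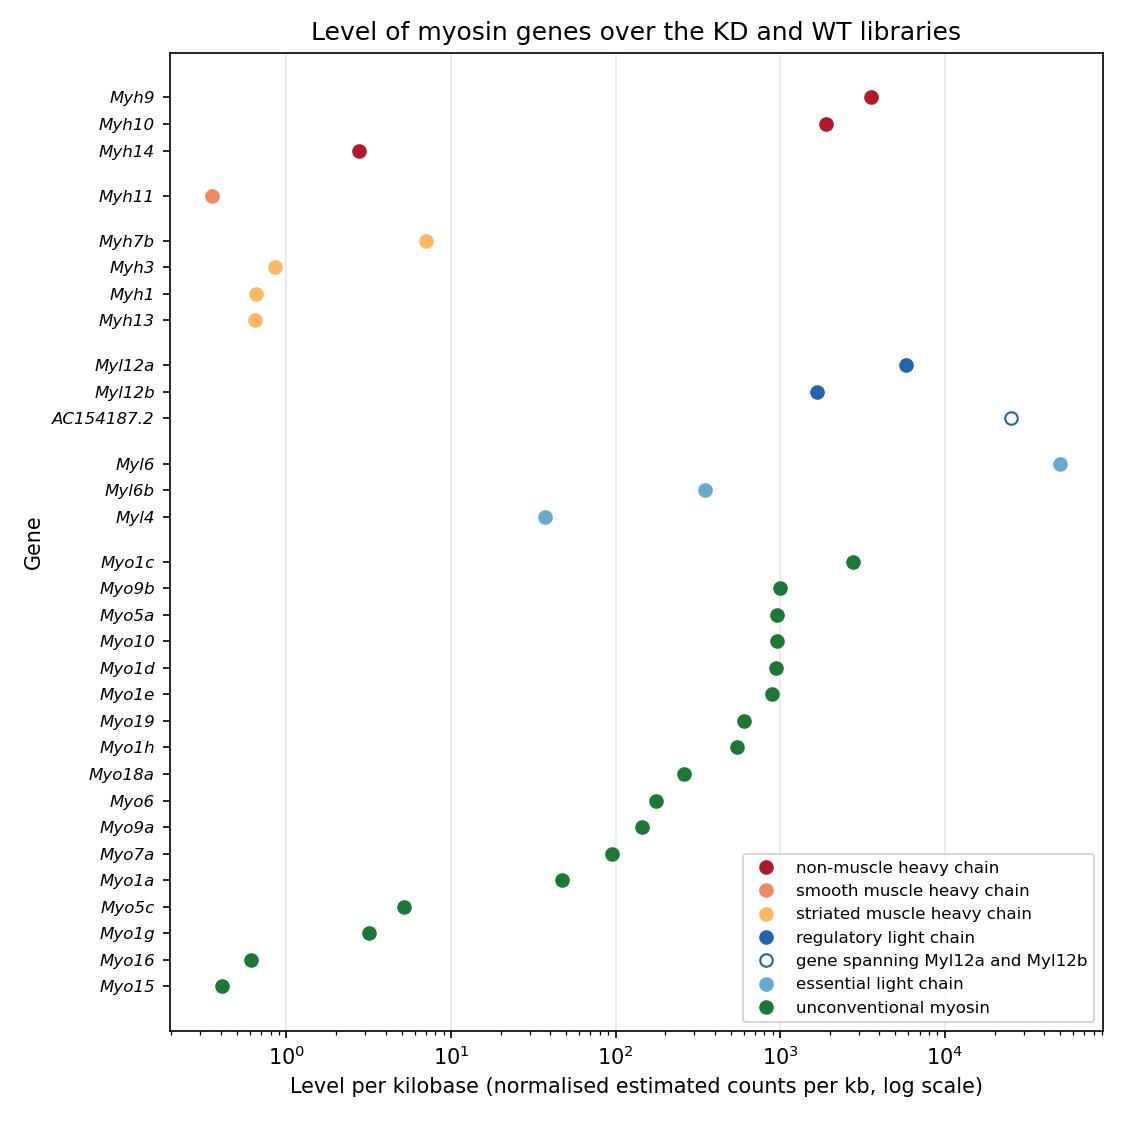
Level per kb (normalised estimated counts per kb, log axis) of myosin genes by role, each point being the sum over the protein-coding transcripts of a gene over the KD and WT libraries together. The open circle is AC154187.2, at 25138 per kb, which shares exons with *Myl12a* and *Myl12b*, and *Myl6* is the highest point at 50002 per kb.

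The plot of level by gene shows that the non-muscle heavy chains, the essential light chains and the unconventional myosins each spanned orders of magnitude, while *Myl12a* was 3.47 times *Myl12b*. Of all members, 20 genes were at or above 100 counts and 11 below. Of member transcripts 67.6% reached that level, beside 65.9% of protein-coding transcripts. At or above 1000 counts were 16 genes. All members together held 0.22% of the summed level of all transcripts.

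Unconventional myosins had 18 genes with a row and a summed level of 10217 per kb, 1.87 times that of the non-muscle heavy chains. *Myo1c* led with 12649 counts or 2755 per kb, which was 27.0% of the unconventional level, and its ratio to the next gene was 2.77. Below it, 5 genes lay close together. *Myo9b*, a motor with a GTPase-activating domain, had 995 per kb, *Myo5a* 960, *Myo10*, a motor of filopodia, 952, *Myo1d*, known from left-right asymmetry, 937, and *Myo1e*, an endocytic myosin, 895 per kb. Neighbours within these 5 genes differed by 0.01 to 0.07 on the log2 scale, less than the SDs of their leading transcripts, so their order is not resolved.

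*Myo19*, a motor bound to mitochondria, had 599 per kb and *Myo1h* 542 per kb, and these did not differ beyond the larger of their SDs, that of *Myo1h*. *Myo18a*, which binds the Golgi, had 258 per kb, *Myo6* 176, *Myo9a*, the other myosin with a GTPase-activating domain, 145, and *Myo7a*, a motor of sensory hair cells, 95.4 per kb. Each of these differed from its neighbour in the order by more than the SD of either leading transcript. For *Myo6* and *Myo9a* the log2 difference was 0.28, less than the SDs of other *Myo6* transcripts at or above 100 counts, 0.37 and 0.48. In counts not divided by length their order turned, with 1760 for *Myo9a* and 1116 for *Myo6*. *Myo1a*, the brush border myosin, had 47.3 per kb. The lowest unconventional myosins were *Myo5c* of glandular epithelia with 5.20 per kb, *Myo1g* of blood cells with 3.17, *Myo16* of brain with 0.605 and *Myo15* of hair cells with 0.407 per kb. Neighbours among these 4 genes did not differ beyond the larger SD of each pair. For *Myo1f*, *Myo3a*, *Myo3b*, *Myo5b*, *Myo7b*, *Myo15b* and *Myo18b* there was no row among those analysed here.

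Some unconventional myosins overlap genes on the other strand, and although the library kit was stranded, whether strand was used in the estimates is not given in the sources used here. The longest *Myo1h* transcript shares 1010 of its 4631 bases with exons of *Kctd10*, whose level was 11379 counts. That transcript held 9.28% of the *Myo1h* level per kb and 27.2% of the counts not divided by length. A transcript with only 639 coding bases held 63.5% of the level per kb and 50.4% of the counts. Transcripts with 666 and 567 coding bases held 24.7% and 2.49% of the level per kb. The leading *Myo19* transcript shares 277 bases with *Znhit3* and 106 with *Pigw*. These levels are uncertain to that extent.

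Isoforms were compared within the 15 genes that had at least 2 transcripts and 100 counts. The leading transcript held a median of 63.5% of the level per kb, from 31.4% in *Myl12a* to 97.7% in *Myh10*. It held at least 80% in 3 genes, namely *Myh10*, *Myo1d* and *Myo19*, and under 50% in *Myl12a* and *Myo6*.

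**Figure D2:**
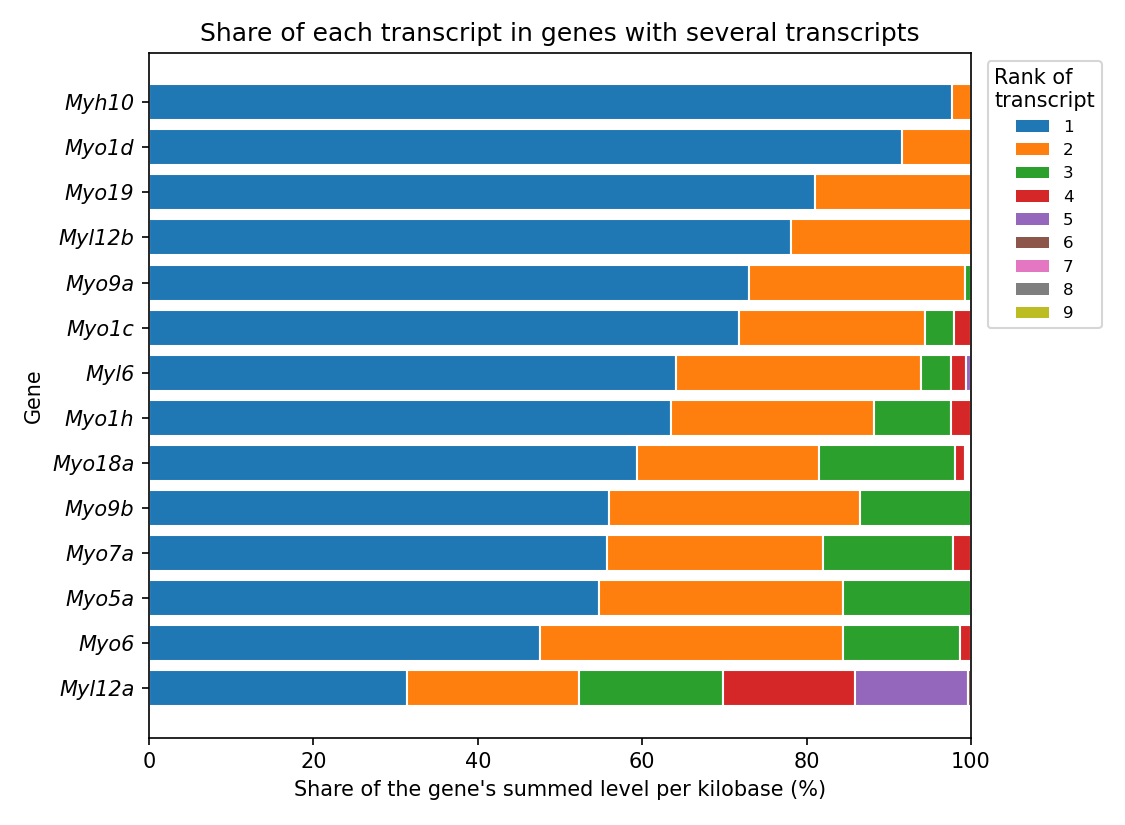
Share of each transcript in the summed level per kb (%) of genes with several transcripts and at least 100 counts, coloured by rank within the gene. The leading transcript holds 97.7% in *Myh10* at the top and 31.4% in *Myl12a* at the bottom.

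In *Myo5a*, the transcript with exon D held 54.7% of the level per kb and the transcript with exon F 29.7%, and no transcript with a row held both exons. The remaining 15.5% lay in a transcript without either, which had no 31-base word of its own. Without division by length, exon D and exon F had 43.7% and 43.6%, so the gap between these forms depended on transcript length. In *Myo6*, the 30-, 39- and 27-base exons were in transcripts with 36.9%, 38.3% and 51.1% of the level, and the leading form, with 47.5%, had none of them. That leading form also had no 31-base word of its own. Without division by length the exons had 23.7%, 25.2% and 41.3%, and the leading form 57.1%. The *Myo6* transcript with all 3 exons had an SD of estimation, described below, of 0.37, as large as its SD over the libraries of 0.37.

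In *Myl6*, the leading transcript held 64.1% and the transcript with the other carboxyl end 29.7%. Both were at high counts, 21328 and 10275, with SDs of 0.21 and 0.46. In *Myo1c*, forms that begin at the shared start codon held 75.3%, the form with the 48-base start 22.6%, and the form with the 105-base start 2.07% of the level. The last of these had 265 counts and an SD of 1.20. *Myo18a* had 9 transcripts, the most of any member, and 3 of them were at or above 100 counts. Its leading transcript, with 6150 coding bases, held 59.4%, and shorter forms of 5100 and 5157 coding bases held 22.1% and 16.5%. The form of 5157 coding bases had no 31-base word of its own. *Myo9b* was split into 56.0%, 30.5% and 13.5% over 3 forms. In *Myo9a*, transcripts with a 213-base exon held 73.6% of the level, and the leading one of them had no 31-base word of its own.

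Reads that match several transcripts are shared out by estimation, and the authors' table holds a variance of these estimates, named here the estimation variance. It may hold more than read assignment. In *Myo1a* and *Myo1e*, whose words occurred in no other transcript of the table, the SD of estimation was 0.11 and 0.02. Counting error may be part of the estimation variance, but the parts were not separated and this was not tested. Isoforms of a gene share most of their sequence, and the median member had only 4.85% of its 31-base words to itself. Among the 50 member transcripts at or above 100 counts, the estimation variance was a median of 21.9% of the variance over the libraries, beside 13.6% for all 17484 protein-coding transcripts at that level. It exceeded 100%, or more than the libraries varied, in 8 of the 50, beside 12.8% of the protein-coding transcripts at that level. With no limit on the level, the medians were 26.3% for the members and 29.4% for protein-coding transcripts, the opposite order. The highest values were 1192% and 623% in *Myo7a* transcripts, 813% in a *Myo18a* transcript, 522% in the *Myo5a* transcript without exon D or F and 254% in *Myo1a*. The *Myo1a* transcript shared no word with another transcript of the table, and it had the lowest SD over the libraries of these members, 0.07. Transcripts without a row were not searched for shared words, so the source of its 254% was not tested. Across the 50 transcripts, which share genes and libraries, Spearman's rank correlation between own words and SD of estimation was -0.50, and between level and that SD it was -0.80. The median SD of estimation was 0.04 in the 11 transcripts with more than 50% own words and 0.15 in the other 39.

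**Figure D3:**
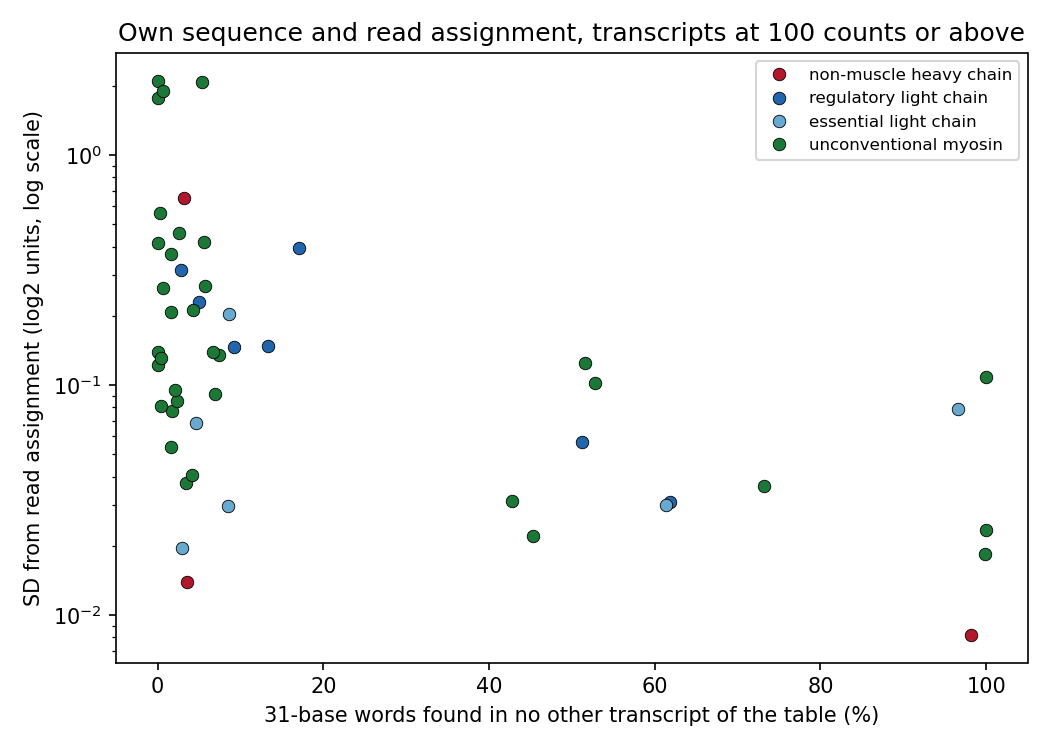
SD of estimation (log2 units, log axis) against the share of 31-base words found in no other transcript of the table (%), coloured by role. Points are the 50 member transcripts at or above 100 counts. The SD of estimation may hold more than read assignment. The 11 transcripts with more than 50% own words have a median of 0.04. The highest points, of *Myo18a*, *Myo1d* and *Myo7a* transcripts, lie at the left, at 5.33% own words or less.

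The spread over all 4 libraries had a median SD of 0.29 in these 50 transcripts, beside 0.22 for the protein-coding transcripts at that level, whose 10th to 90th percentiles were 0.08 and 0.51. At or above 1000 counts both medians were 0.18. Above that 90th percentile were 9 member transcripts. The highest SDs were 1.67 in a minor *Myo1d* transcript with 244 counts, 1.20 in the *Myo1c* form with the 105-base start, 0.81 in the minor *Myh10* transcript, 0.74 in a *Myo18a* transcript and 0.71 in a *Myo7a* transcript. In the *Myo1d*, *Myo18a* and *Myo7a* transcripts the SD of estimation was larger still, at 2.08, 2.10 and 1.76. It was smaller, at 0.42 and 0.65, in those of *Myo1c* and *Myh10*. How much of any SD lies between KD and WT was not analysed here. An SD under 0.20 was found in 18 of the 50 transcripts, among them those of *Myo10* (0.08), *Myo1e* (0.18) and the leading *Myo19* transcript (0.08). The share of protein-coding transcripts under 0.20 was not computed, and their median at or above 100 counts was 0.22. Below 100 counts, 24 member transcripts had a median SD of 2.49, beside 0.59 for protein-coding transcripts below that level. These sets were not matched in level, and all 24 members lay below 50 counts.

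**Figure D4:**
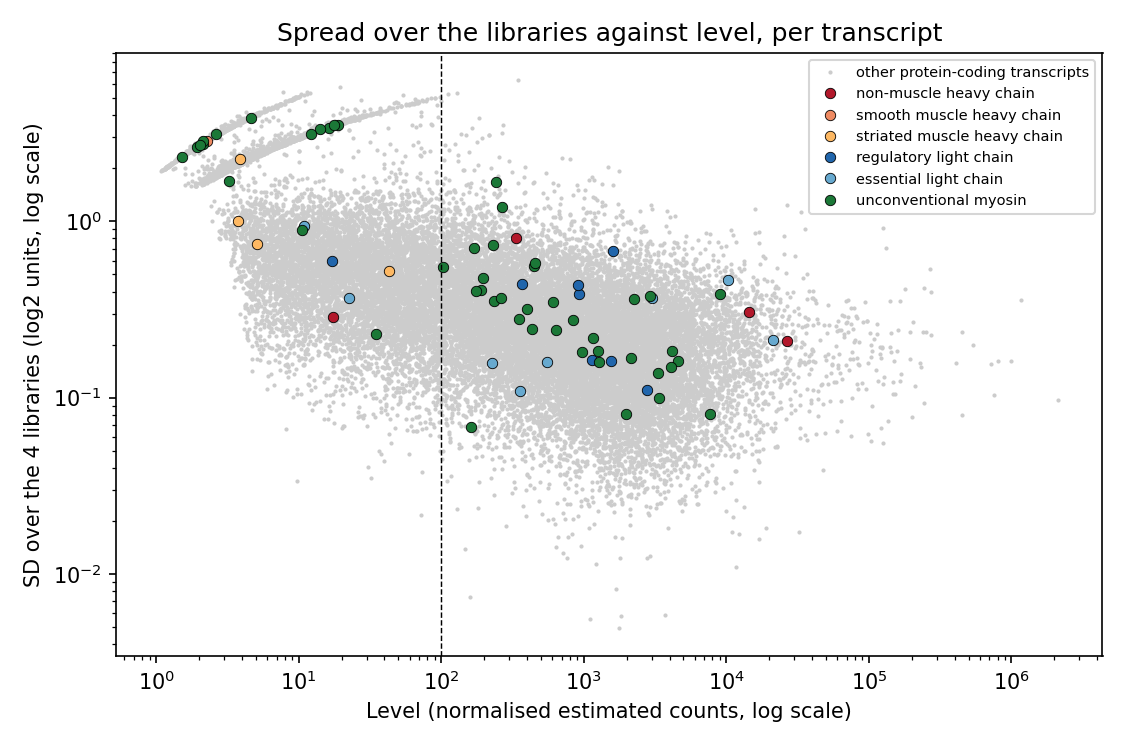
SD over the 4 libraries (log2 units, log axis) against level (normalised estimated counts, log axis) for each transcript, with members coloured by role, other protein-coding transcripts in grey and a dashed line at 100 counts. Members at or above the line have a median SD of 0.29, and those below it a median of 2.49.

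Kinases that act on myosin II had a row for all 10 genes of the list, and 7 were at or above 1000 counts. *Rock2*, a kinase of the light chain and of its phosphatase, was highest with 1214 per kb, followed by *Cdc42bpb* with 1107 and *Dapk3* with 1064 per kb. *Cdc42bpa* had 654, *Rock1* 624, *Mylk*, the calmodulin-dependent light chain kinase, 438, and *Cit*, the kinase of cytokinesis, 196 per kb. The kinases *Mylk2*, *Mylk3* and *Mylk4* had 22.0, 6.47 and 59.6 counts. Myosin phosphatase genes were all at or above 1000 counts. Among them *Mprip*, which anchors the phosphatase to actin, had 3507 per kb, the catalytic subunit *Ppp1cb* 1217, and the targeting subunits *Ppp1r12a*, *Ppp1r12c* and *Ppp1r12b* had 1189, 1143 and 211 per kb. *Ppp1cb* had an SD of 0.86, above the 90th percentile.

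Upstream of *Rock1* and *Rock2*, all 4 genes were at or above 1000 counts. *Rhoc* had 6108 per kb, *Rhoa* 5276, *Arhgef2*, an exchange factor for RhoA, 2398 and *Rhob* 2387 per kb. Among 7 partners and chaperones, 5 were at or above 1000 counts. *S100a4*, a calcium-binding protein that takes apart myosin IIA filaments, had 458932 per kb. Of the genes of calmodulin, the light chain of many unconventional myosins, *Calm2* had 19276 and *Calm3* 5459 per kb. The myosin chaperone *Unc45a* had 1308 per kb. Its muscle counterpart *Unc45b* had 17.5 counts and *Limch1*, an activator of myosin II, 5.42 counts.

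Markers of the cell line were checked over the same libraries, where fewer cells of a type and less RNA per cell cannot be told apart. All 9 fibroblast markers were at or above 1000 counts, with 323250 for *Fn1*, 273156 for *Col1a2*, 228548 for *S100a4*, 180532 for *Col1a1*, 137580 for *Vim*, 10353 for *Pdgfra*, 6573 for *Col3a1*, 4848 for *Thy1* and 3083 for *Pdgfrb*. Of 6 smooth muscle markers, *Smtn* had 5581, *Acta2* 4001, *Tagln* 1241 and *Des* 146 counts, while *Cnn1* had 4.04 and *Myh11* 2.27. *Acta2* and *Tagln* had SDs of 1.07 and 1.33. Of 11 striated muscle markers, 7 had a row and only *Tnnt2*, with 295 counts, reached 100. For *Actc1*, *Myod1*, *Myog* and *Tnnt3* there was no row among those analysed here, nor for the epithelial markers *Epcam* and *Krt18*. The other epithelial markers, *Cdh1* and *Krt8*, had 113 and 22.5 counts. The endothelial markers *Pecam1* and *Cdh5* had 29.4 and 30.9, and the leukocyte markers *Cd68* and *Ptprc* 343 and 30.3 counts.

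By position, 11 of the 31 member genes lie on chromosome 11, including *Myh10*, *Myo1c*, *Myo1d*, *Myo18a* and *Myo19* as well as the muscle genes *Myh3*, *Myh1* and *Myh13* in one cluster. Chromosome 9 holds 5, with *Myo5a* and *Myo5c* separated by 8331 bases. Although they are neighbours, *Myo5a* had 960 and *Myo5c* 5.20 per kb. *Myl6* and *Myl6b* on chromosome 10 were likewise adjacent and far apart in level.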

How the data were processed

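RNA-seq was made from 2 KD and 2 WT samples of NIH/3T3 cells. The authors trimmed adapters with BBDuk, estimated transcript counts with Kallisto and modelled them in Sleuth. The submitters' processing notes also name bcl2fastq 2.17, HISAT2 and GRCm38. The transcriptome used as the index and the strand setting are not given in the sources used here. The deposited mean is on the natural log scale, of normalised estimated counts plus 0.5, and the authors' variances over the libraries and of estimation are on the same scale. Other deposited columns hold the authors' comparison of KD with WT (effects, standard errors, test statistics, p-values and q-values) and were not used.

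Levels were computed as the exponential of the mean minus 0.5 and divided by the transcript length of GENCODE M21 in kb. They were summed over the protein-coding transcripts of a gene. All 74 members matched the annotation by versioned identifier, while 456 other protein-coding transcripts did not, so that *Acta2* has no level per kb. Depth per library is unknown, and no interval for counting error is given. The planned comparison of KD with WT required a value for each library, and only pooled values were used, so it was not run. Own words were counted over all matched transcripts on both strands. Coding sequences, used in place of the planned proteins, were aligned globally (match 1, mismatch -1, gap opening -2, gap extension -0.5) in Biopython 1.88, with Python 3.11.15, pandas 2.3.3 and numpy 2.4.6. The computation of levels and SDs was tested on simulated data, and the choice of members on example symbols. Shares, shared words, exon overlaps and alignments were not tested in this way.

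Members and lists were chosen with earlier results of these data known. The genes named were all members with at least 1000 counts, the most and least abundant of each class (the unconventional myosins by class number), the 5 transcripts with the highest SD and the 5 with the highest share of estimation variance at 100 counts or above, and all regulators and markers. A member and a regulator that the rule takes are not reported here by name or value, but are in the counts and sums. *Myl6b*, *Myh1*, *Myh3*, *Myh13*, *Myo1h*, AC154187.2, the genes that overlap members or share words with them, and the lowest SDs were named after their values were seen, and the exons shown were chosen then too. Alternatives covered the level limits, the division by length, the kind of mean and the transcript categories.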

Additional observations from a re-analysis of the deposited data

How the results depend on the processing

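Of 50 values under other settings, 29 moved little and 21 moved further. Among the 29, the leading shares over all transcript categories could not move, because the genes compared had no transcript of another category. A share or ratio was held to have moved little if it changed by less than it does when the level of the gene or form in question is shifted by its SD over the libraries, and a count or median if it changed by at most 1.5 times. The number of genes whose leading transcript held at least 80% was 3, and it was 4 without division by length and 2 with 200 bases taken off each length. With AC154187.2 added, values were counted as moved. The number of members at or above the level limit and the shares of *Myh9* and *Myo1c* were among the former. Without division by length, *Myl12a* held 66.1% and *Myl12b* 33.9% of the regulatory light chain level, *Myl6* 98.9% and *Myl6b* 0.998% of the essential light chain level, and regulatory and essential light chains had 0.226 and 0.868 times the non-muscle heavy chain level, since heavy chain transcripts are longer. With 200 bases taken off each length, *Myl12b* held 20.6% and *Myl6b* 0.608%, and the essential light chains had 12.7 times the heavy chain level. With AC154187.2, the shares per kb of *Myl12a* and *Myl12b* were 17.8% and 5.12% and the regulatory light chains had 5.97 times the heavy chain level per kb. The shares of *Myo5a* and *Myo6* exons also moved without division by length, to 43.7% and 43.6% for *Myo5a* and to 23.7%, 25.2% and 41.3% for the 30-, 39- and 27-base *Myo6* exons. At a limit of 1000 counts, the median SD was 0.18 for the members and 0.18 for all protein-coding transcripts, and the median share of estimation variance was 5.94% beside 4.65%. With no limit, the medians of that share were 26.3% for the members and 29.4% for all protein-coding transcripts, so their order turned. For these medians the cause was not tested. The comparisons with AC154187.2, of light with heavy chains and of exons, and the leading shares without division by length or with shortened lengths, were chosen after seeing the data.

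No paired analysis was possible because only values pooled over the libraries were used, and for the same reason leave-one-out, another pseudocount and no filter on low values were not run for KD against WT. Depth per library is unknown, and levels below 100 counts rest on few reads. The mean of logs lies below the arithmetic mean where libraries differ widely, so low transcripts with a high SD are understated. Words shared within a gene limit the isoform shares, and in *Myl6*, *Myl12a* and *Myl12b* words are shared with pseudogenes too.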
